A study of Mus musculus with 9 samples.

Results

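A set of 10 genes of arginine and polyamine metabolism was followed in mouse bone marrow-derived macrophages (BMDMs): the arginine carrier Slc7a2, the arginases Arg1 and Arg2, the inducible nitric oxide synthase Nos2, the citrulline recycling enzymes Ass1 and Asl, and the polyamine genes Odc1, Azin1, Srm and Sat1. They were taken by gene symbol from the 53465 genes of the count table, and each symbol stood on 1 row. The BMDMs were grown from bone marrow of male wild-type C57B6 mice (C57bl6/J in the methods of the study) with CSF1, the macrophage growth factor, at 50 ng/ml in all groups. They were left untreated (UNX) or were treated with medium conditioned by pulmonary artery adventitial fibroblasts of control calves (CO-CM) or of calves with hypoxia-induced pulmonary hypertension (PH-CM), with 3 libraries in each group. The labels give a treatment of 16 h in one place and of 24 h in another, and the methods of the study give a time between these. UNX cells received no conditioned medium, so both comparisons with UNX cover the change of medium as a whole. The libraries are repeats of the macrophage culture and the p-values measure the spread between them, not between calves. The study asked how the fibroblast environment changes macrophage transcription and metabolism.

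Arginine enters macrophages through cationic amino acid carriers and has competing fates. Nitric oxide synthase turns it into nitric oxide and citrulline, from which Ass1 and Asl can rebuild arginine, whereas arginase splits it into urea and ornithine. Ornithine feeds proline and the polyamines, small cations that growing cells need, and in macrophages the balance of the arginase and nitric oxide synthase routes is a classical mark of the activation state.

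Libraries held between 62017933 and 84314201 counted reads. Levels are given as CPM (counts scaled to library size, with TMM factors for composition), or as the deposited RPKM, which also divides by exon length, where genes are set beside each other. All 8 macrophage markers passed the expression filter, with a summed level of 11798 to 12652 CPM in UNX, 19258 to 20237 CPM in CO-CM and 21256 to 22928 CPM in PH-CM libraries. Of the 7 fibroblast markers 6 passed, with summed levels of 197 to 249, 266 to 318 and 249 to 334 CPM. Against UNX, 4 of these 6 were called up with PH-CM (31.3% of all genes tested) and 2 with CO-CM (28.0%). Among the 8 macrophage markers the calls up numbered 7 and 6, and neither list held a call down. Of the 9 neutrophil markers and of the 5 dendritic cell markers 1 each passed. Against UNX, S100a8 was called up with both media, and Itgax was called down with PH-CM and not called with CO-CM. The neutrophil sum was at most 5.18 CPM, with Ly6g at 0 reads in every library. The dendritic cell sum was 8.94 to 34.0, 19.7 to 64.1 and 5.51 to 8.08 CPM in UNX, CO-CM and PH-CM. Itgax, the marker of this list that passed, alone had 8.50 to 33.5, 19.1 to 63.7 and 5.12 to 7.63 CPM in these groups, so this sum describes mainly 1 gene. Lymphocyte markers summed to at most 0.179 CPM and mast cell and basophil markers to at most 0.755 CPM, with none past the filter. The part of these differences in the values below was not tested, and in bulk RNA fewer cells of a type and less RNA per cell cannot be told apart.

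Of the 10 genes, 9 passed the filter (a CPM above 1 in at least 3 libraries) and were tested among 11950 genes with edgeR's quasi-likelihood test. A call required a Benjamini-Hochberg adjusted p (FDR) no larger than 0.05 together with a change of 1.2-fold or more. Arg2 passed only through the 3 PH-CM libraries, so a difference from PH-CM is partly built into its passing, and each count below is also given without it. Compared with UNX, PH-CM gave 5 genes called higher (Slc7a2, Arg1, Arg2, Asl and Sat1) and 2 called lower (Azin1 and Srm), while 31.3% of all genes tested were called higher and 31.7% lower. CO-CM gave 5 called higher (Slc7a2, Arg2, Ass1, Asl and Sat1) and 3 called lower (Odc1, Azin1 and Srm), beside 28.0% and 28.9% of all genes. Compared directly, PH-CM was above CO-CM for 3 genes (Arg1, Arg2 and Odc1) and below it for 3 (Slc7a2, Ass1 and Azin1), beside 12.2% and 15.0% of all genes. Without Arg2, the genes called higher numbered 4, 4 and 2 of 8 in these comparisons and those called lower 2, 3 and 3. The median log2 fold change over these 8 genes was 0.31, -0.08 and -0.19, beside 0.01, 0.00 and -0.01 over all genes tested, and Arg2 moved the median for CO-CM against UNX to 0.32. Both comparisons with UNX share the same 3 UNX libraries.

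**Figure D1:**
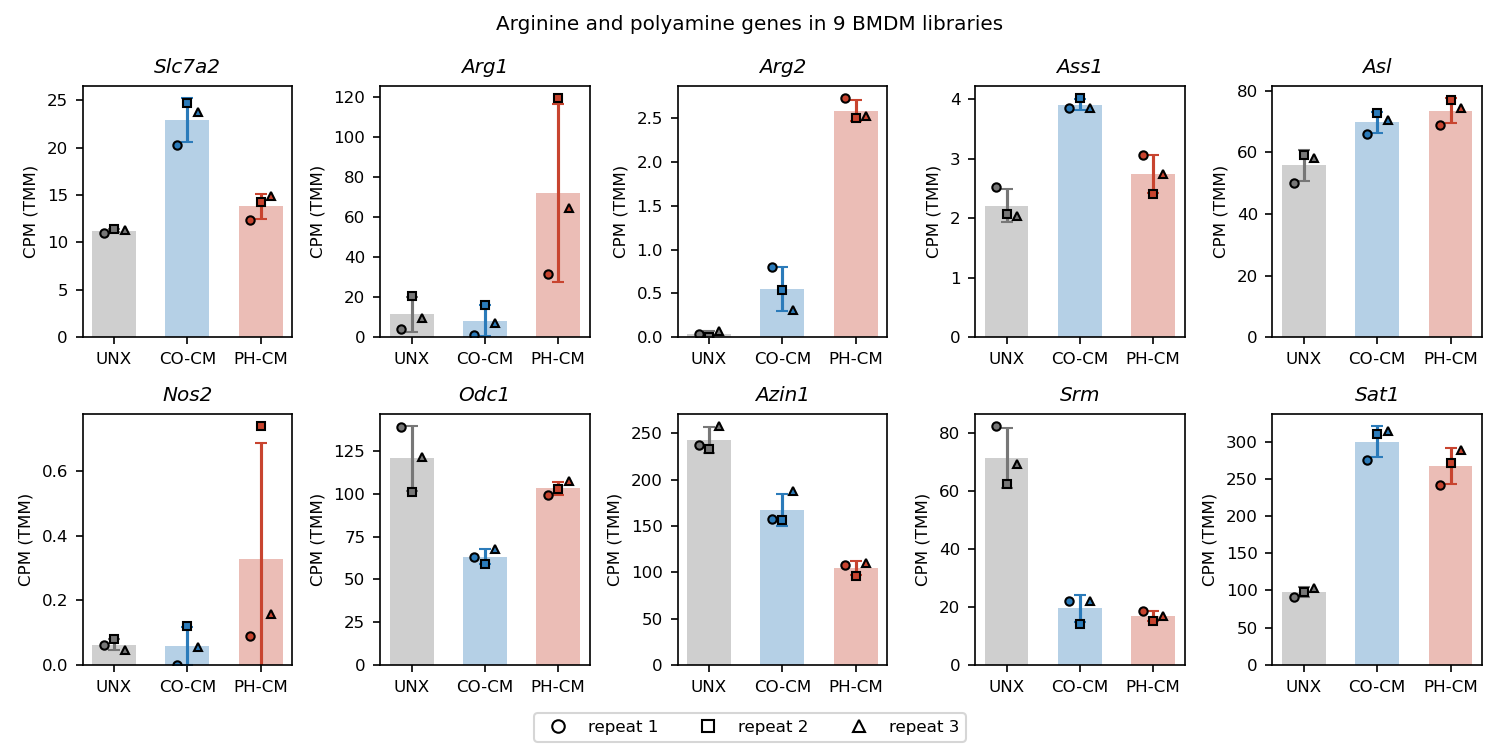
CPM of the 10 genes on the y axis of each panel for the 3 groups on the x axis; bars are means, error bars are SD of 3 libraries (drawn from 0 where they would go below it) and symbols mark the repeat number. Arg1 in PH-CM spreads from 31.5 to 119 CPM, whereas Sat1 lies between 242 and 314 CPM in all libraries with conditioned medium and between 91.3 and 104 CPM in UNX.

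**Figure D2:**
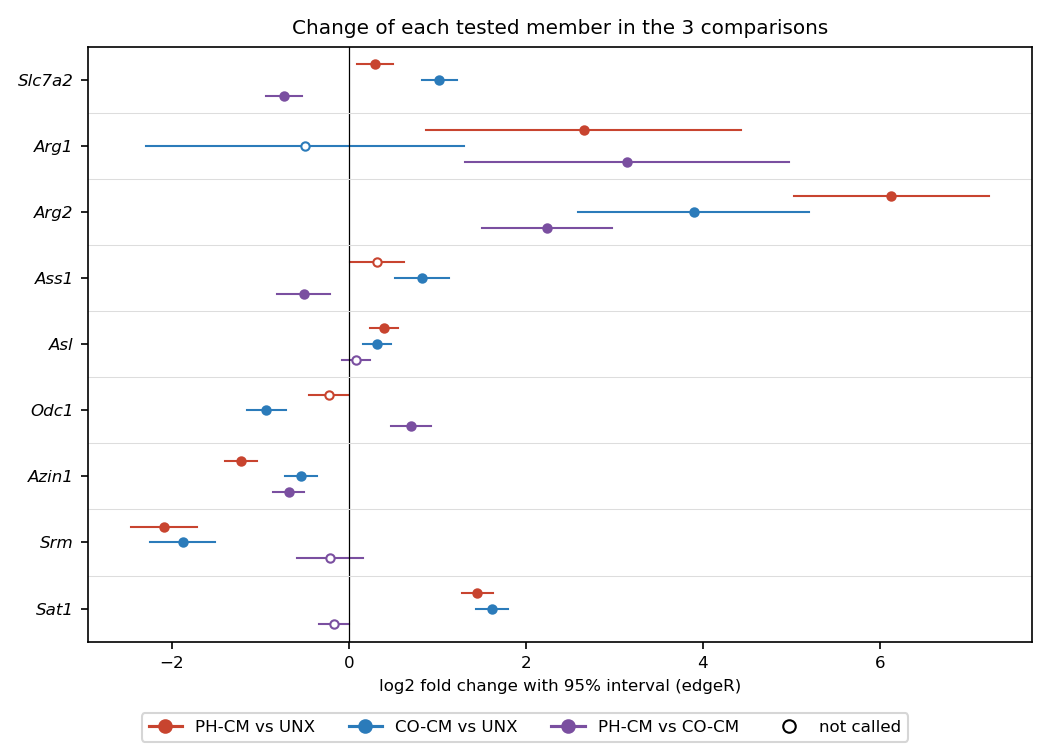
Log2 fold change (x axis) of the 9 tested genes in the 3 comparisons with 95% confidence intervals from the edgeR fit; filled points were called and open points were not. The intervals of Arg1 and Arg2 are the widest of these genes, and Odc1 lies at -0.93 for CO-CM against UNX and at 0.70 for PH-CM against CO-CM.

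Slc7a2, which encodes the cationic amino acid transporter CAT2, was highest under CO-CM. It had 11.0, 11.4 and 11.3 CPM in UNX repeats 1, 2 and 3, 20.2, 24.7 and 23.7 CPM under CO-CM, and 12.3, 14.2 and 14.9 CPM under PH-CM. The groups did not overlap, with PH-CM just above UNX. Slc7a2 rose under CO-CM (log2 fold change 1.03, SE 0.09, edgeR FDR 3.46e-06) and was lower under PH-CM than under CO-CM (-0.73, SE 0.09, FDR 0.00014). Its difference between PH-CM and UNX (0.30, SE 0.09, FDR 0.0131) lay close to the fold change threshold, and fell below it with library size in place of TMM factors (0.24), without the filter on low counts (0.25) or with edgeR's filterByExpr (0.26). It was also not called without PH-CM repeat 3 (0.24, FDR 0.0566). The gene lies on chromosome 8 (GRCm38 chr8:40862396-40922308, plus strand).

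The other carriers of arginine and related amino acids did not share this pattern. Slc7a1, the constitutive cationic amino acid transporter CAT1, fell from 150 ± 29.9 CPM in UNX (SD, n = 3) to 35.6 ± 7.13 CPM under CO-CM and 20.2 ± 3.32 CPM under PH-CM (log2 fold changes -2.07, SE 0.18, and -2.89, SE 0.19, edgeR FDR 3.04e-06 and 2.44e-07). Per length, Slc7a2 stood at 0.0974 ± 0.0202 of Slc7a1 in UNX, 0.846 ± 0.257 under CO-CM and 0.885 ± 0.204 under PH-CM, so the range of this ratio overlapped between the media and lay above UNX in both. Slc7a5, the large neutral amino acid transporter LAT1, fell by 2.84 on the log2 scale under CO-CM (edgeR FDR 4.09e-06) and by 3.92 under PH-CM (FDR 4.53e-07). Its partner chain Slc3a2 rose under PH-CM (0.44, edgeR FDR 0.000676) and was not called under CO-CM (FDR 0.966). Slc7a7, the y+LAT1 chain that exports arginine, rose under PH-CM (0.67, FDR 6.61e-06) and lay 0.87 above CO-CM (FDR 6.56e-06). Slc25a15, the mitochondrial ornithine carrier, was lower under CO-CM than in UNX (-0.35, FDR 0.00117) while PH-CM exceeded CO-CM (0.61, FDR 9.28e-05). Slc38a9, the lysosomal arginine sensor, rose by 0.73 and 0.77 under CO-CM and PH-CM (FDR 1.12e-06 and 5.37e-07). Of 7 such genes tested among 9 listed, 3 rose and 3 fell under PH-CM, beside 31.3% and 31.7% of all genes tested, and 1 rose and 4 fell under CO-CM, beside 28.0% and 28.9%.

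Arg1, the cytosolic arginase and a marker of alternatively activated macrophages, was highest under PH-CM but differed widely between repeats. Its level was 3.84, 20.7 and 9.45 CPM in UNX repeats 1, 2 and 3, 0.905, 16.2 and 7.28 CPM under CO-CM, and 31.5, 119 and 64.2 CPM under PH-CM. Every PH-CM library was above every other library, and UNX and CO-CM overlapped. Within each group repeat 2 was the highest and repeat 1 the lowest.

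Arg1 was called higher under PH-CM than in UNX (log2 fold change 2.65, SE 0.80, edgeR FDR 0.0116) and than under CO-CM (3.14, SE 0.83, FDR 0.0127). In the fit without a block, CO-CM and UNX could not be told apart (-0.49, 95% confidence interval -2.29 to 1.31, FDR 0.606). The direction turned without UNX repeat 2 (0.26) or without CO-CM repeat 1 (0.04). These omissions leave CO-CM repeat 2 and UNX repeat 1 without their partner in this comparison. No alternative fit called this difference, and the lowest FDR among the edgeR and DESeq2 alternatives was 0.0585. Compared within the same repeat number, PH-CM was 8.22-, 5.75- and 6.80-fold above UNX and 34.8-, 7.37- and 8.82-fold above CO-CM in repeats 1, 2 and 3. CO-CM was below UNX in each repeat, at 0.236, 0.781 and 0.771 of it. The call against UNX was lost without PH-CM repeat 2 (2.07, FDR 0.0504), and the size rose to 3.40 without UNX repeat 2. The call against CO-CM was lost without CO-CM repeat 3 (3.07, FDR 0.0505), and the size ranged from 2.56 without PH-CM repeat 2 to 4.12 without CO-CM repeat 2. With the repeat number as a block the values were 2.78 (FDR 6.83e-07) and 3.35 (FDR 1.06e-06). Arg1 lies on chromosome 10 (chr10:24915221-24927484, minus strand), and no other gene overlaps it.

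**Figure D3:**
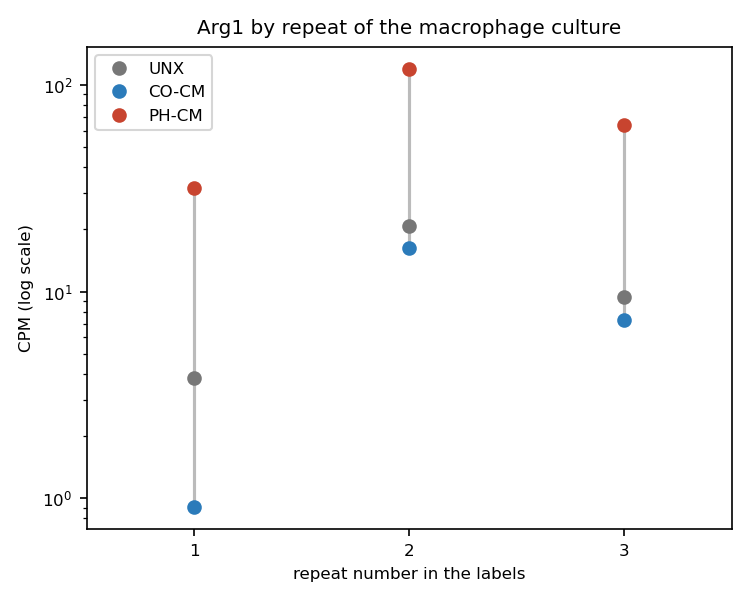
CPM of Arg1 on a log axis (y) for each repeat number of the labels (x), with 1 point per library colored by group and grey lines joining the lowest and highest library of a repeat. PH-CM is the highest group in each repeat, and all 3 groups are highest in repeat 2, with 20.7, 16.2 and 119 CPM in UNX, CO-CM and PH-CM.

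The repeat number accounted for 33.8% of the variance of log2 CPM of Arg1 over the 9 libraries, a share above that of 89.1% of the genes tested, beside 61.6% for the group. For the median gene the number accounted for 5.89%, and for the other 8 tested genes of this set it ranged from 1.02% for Arg2 to 16.3% for Asl. As a description over 9 libraries, with no test, the log2 CPM most like that of Arg1 belonged to Cmtm3 (Pearson r 0.976), Rgs11 (0.971), Fut11 (0.963), Nr4a1 (0.962) and Gm16754 (0.960). After each group mean was taken away, the most similar genes were Frmd6 (0.998), Rgs11 (0.997), Pdk1 (0.994), Aldoa (0.994) and Slc2a1 (0.993), and these points share the libraries and their depth. Pdk1 encodes a kinase that inhibits pyruvate dehydrogenase, Aldoa a glycolytic aldolase and Slc2a1 the glucose transporter GLUT1. Frmd6 had 39.4, 50.5 and 44.6 CPM in UNX but 16.7, 20.5 and 18.3 CPM under PH-CM, so it followed the repeats of Arg1 and not its change between groups.

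Arg2, the mitochondrial arginase, was close to absent in UNX and rose under both media. It had 2, 0 and 6 reads in UNX repeats 1, 2 and 3, 55, 36 and 22 reads under CO-CM, and 184, 156 and 160 reads under PH-CM. Both mates of a fragment were counted, so 2 reads stand for about 1 fragment. A count of 0, taken as fewer than 3 fragments, allows up to 0.0794 CPM in the UNX library without a read. The 3 groups did not overlap, and the PH-CM libraries lay between 2.51 and 2.73 CPM. From the summed reads PH-CM was 73.4-fold above UNX (counting interval 28.3 to 272) and CO-CM 15.5-fold (5.67 to 58.3), where the 95% intervals are computed on fragments and cover counting error only. In the fit the log2 fold changes were 6.13 (SE 0.50, edgeR FDR 1.29e-06) and 3.90 (SE 0.59, FDR 0.000165), and leaving out UNX repeat 3 moved them to 7.32 and 5.08 and UNX repeat 2 to 5.57 and 3.32. PH-CM was above CO-CM by 2.24 (SE 0.33, FDR 0.00046), a 4.74-fold ratio of reads (3.57 to 6.51). Without the filter on low counts, through which Arg2 passed by PH-CM alone, the values were 6.09, 3.86 and 2.23 (FDR 3.03e-17, 1.83e-09 and 2.11e-08). The sizes against UNX rest on 8 UNX reads, or 4 fragments.

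Arg2 lies on chromosome 12 (chr12:79130777-79156301, plus strand), and 28.1% of its exon bases are shared with Vti1b and Gm48780 on the opposite strand. Vti1b, a vesicle fusion gene, had 74.1 ± 2.94, 67.1 ± 4.22 and 70.0 ± 1.44 CPM in UNX, CO-CM and PH-CM libraries and was not called in any of the 3 comparisons (log2 fold changes -0.14 to 0.06, with the lowest edgeR FDR of 0.0351 for CO-CM against UNX). Per length, Arg2 remained low beside Arg1, with 1.80 ± 0.113 against 31.7 ± 19.3 RPKM under PH-CM (SD, n = 3). The RPKM of Arg2 divides by all its exon bases, the shared ones included, so its count and level are uncertain.

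Nos2, the inducible nitric oxide synthase of classically activated macrophages, was near the detection limit in every group. It had 4, 6 and 4 reads in UNX, 0, 8 and 4 reads under CO-CM, and 6, 46 and 10 reads under PH-CM. The highest library was PH-CM repeat 2 with 0.739 CPM, and the other 2 PH-CM libraries lay at 0.0891 and 0.158 CPM, just above or within the range of UNX and CO-CM. Nos2 did not pass the filter and was not tested with the other genes. The ratio of summed reads was 5.20 for PH-CM against UNX (counting interval on fragments 2.25 to 14.0), and 46 of the 62 PH-CM reads came from 1 library. Without the filter on low counts edgeR gave a log2 fold change of 2.32 (SE 0.74, FDR 0.00981) for PH-CM against UNX and of 2.45 (SE 0.76, FDR 0.0161) against CO-CM. Per length, Nos2 stood at 0.0732 ± 0.0791 RPKM under PH-CM, far below Arg1. The gene lies on chromosome 11 (chr11:78920787-78960254, plus strand).

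The other nitric oxide synthases, Nos1 and Nos3, did not pass the filter either and were not tested. Nos1 had 0 reads in UNX, 4 to 10 reads per library under CO-CM and 12 to 40 under PH-CM, with no overlap between the groups. The groups of Nos3 overlapped. Of 6 tested genes listed for the synthases' cofactor tetrahydrobiopterin and their methylarginine inhibitors, 2 rose and 4 fell under PH-CM (31.3% and 31.7% of all genes tested). Under CO-CM 1 rose and 2 fell (28.0% and 28.9%). Gch1, which starts tetrahydrobiopterin synthesis, fell by 0.43 and 0.49 on the log2 scale under PH-CM and CO-CM (edgeR FDR 8.21e-05 and 3.96e-05), and its next enzyme Pts rose by 0.93 and 0.67 (FDR 8.64e-08 and 1.5e-06). Ddah1, which degrades methylarginines, rose under PH-CM (0.86, FDR 0.00111) and was higher than under CO-CM (0.66, FDR 0.0129). Ddah2, of the same gene family and with a higher level (14.1 ± 2.86 CPM in UNX, SD, n = 3), fell under PH-CM (-0.49, edgeR FDR 0.0123). It was not called under CO-CM (-0.36, FDR 0.0536).

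Ass1, argininosuccinate synthase, was low and highest under CO-CM. Its level was 2.53, 2.06 and 2.03 CPM in UNX repeats 1, 2 and 3, 3.86, 4.02 and 3.85 CPM under CO-CM, and 3.06, 2.41 and 2.75 CPM under PH-CM. CO-CM lay above both other groups, while PH-CM and UNX overlapped. Ass1 rose under CO-CM (log2 fold change 0.83, SE 0.14, edgeR FDR 0.000303) and was lower under PH-CM than under CO-CM (-0.51, SE 0.13, FDR 0.0129), a call that was lost without PH-CM repeat 2 (-0.43, FDR 0.0536). Under PH-CM against UNX it had 0.32 (SE 0.14, FDR 0.0588) and was not called, whereas the fit with the repeat number as a block called it (0.32, FDR 0.0459). It was also called without UNX repeat 1 (0.42, FDR 0.0269), without PH-CM repeat 2 (0.40, FDR 0.0345) and with upper-quartile factors (0.34, FDR 0.0418). Ass1 lies on chromosome 2 (chr2:31470207-31520672, plus strand). Of its stretches of 100 bases, 26.9% also occur in Gm5424, so its count is uncertain, and Gm5424 itself had 14 to 20 reads per group.

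Asl, argininosuccinate lyase, rose slightly under both media. It had 50.1, 59.1 and 58.3 CPM in UNX, 66.0, 72.7 and 70.5 CPM under CO-CM, and 69.0, 77.2 and 74.5 CPM under PH-CM. Both media lay above UNX and overlapped each other. The log2 fold changes were 0.40 under PH-CM (SE 0.07, edgeR FDR 0.000476) and 0.32 under CO-CM (SE 0.07, FDR 0.00225), and the difference between the media was 0.08 (95% confidence interval -0.08 to 0.23, FDR 0.429). Within the same repeat number PH-CM was 1.05-, 1.06- and 1.06-fold above CO-CM, and with the repeat number as a block the FDR was 0.103. The call under CO-CM was lost to the fold change threshold without UNX repeat 1 (0.24) and with library size alone (0.25). Asl lies on chromosome 5 (chr5:130011258-130029247, minus strand). The remaining urea cycle genes Cps1, Otc and Nags, which act in liver mitochondria, did not pass the filter.

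Of 7 tested genes listed for the ornithine, proline and creatine branch, 6 fell under PH-CM and 5 under CO-CM. Among all genes tested 31.7% and 28.9% fell. Pycr1, a proline synthesis enzyme, is left out of these counts because it passed the filter through the UNX libraries alone. Without that filter it had -1.22 and -0.70 (edgeR FDR 0.000196 and 0.0308). Oat, ornithine aminotransferase, fell by 0.73 and 0.49 on the log2 scale under PH-CM and CO-CM (edgeR FDR 1.43e-07 and 3.48e-06). Aldh18a1, which makes the proline precursor from glutamate, fell by 2.04 and 1.38 (FDR 5.09e-07 and 1.03e-05). Gatm, the first enzyme of creatine synthesis from arginine, fell by 1.92 under PH-CM and 0.64 under CO-CM (FDR 1.32e-07 and 0.000412), and was 1.28 lower under PH-CM than under CO-CM on that scale (FDR 1.5e-05). Aldh4a1, a proline breakdown enzyme, was the gene of this branch that rose, by 0.26 and 0.34 (FDR 0.0221 and 0.00626).

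Odc1, ornithine decarboxylase, makes putrescine and is the rate-limiting enzyme of polyamine synthesis. Its level was 139, 101 and 122 CPM in UNX repeats 1, 2 and 3, 63.0, 59.1 and 68.1 CPM under CO-CM, and 99.6, 103 and 107 CPM under PH-CM. CO-CM lay below both other groups, and PH-CM overlapped UNX. Odc1 fell under CO-CM (log2 fold change -0.93, SE 0.10, edgeR FDR 1.44e-05) while PH-CM exceeded CO-CM (0.70, SE 0.10, FDR 0.000343). Under PH-CM against UNX it had -0.23 (SE 0.10, FDR 0.0587) and was not called, but was called lower without UNX repeat 2 (-0.34, FDR 0.00262), with library size alone (-0.29), without the filter on low counts (-0.27) and with filterByExpr (-0.26). Of its stretches of 100 bases, 10.1% also occur in other annotated genes such as Gm14928 and Gm15470, so its count is uncertain. Odc1 lies on chromosome 12 (chr12:17544794-17551505, plus strand).

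Sat1, spermidine/spermine N1-acetyltransferase, starts polyamine breakdown and export. Sat1 had 91.3, 98.2 and 104 CPM in UNX, 276, 310 and 314 CPM under CO-CM, and 242, 271 and 289 CPM under PH-CM. All libraries with conditioned medium lay above all UNX libraries, and the media overlapped. The rise was 1.62 on the log2 scale under CO-CM (SE 0.08, edgeR FDR 5.54e-08) and 1.45 under PH-CM (SE 0.08, FDR 6.94e-08). The difference between the media was -0.17 (95% confidence interval -0.34 to 0.01, FDR 0.117), and PH-CM was below CO-CM in each of the 3 repeats. With the repeat number as a block the FDR was 0.00128, and the change remained smaller than 1.2-fold. Sat1 lies on the X chromosome (chrX:155213132-155216449, minus strand).

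Odc1 and Sat1 stand at the entry and the exit of the polyamine pool, and the bases in front of each gene are shown to compare their composition. RefSeq promoter sequences on GRCm38.p6 were matched for 3 of the 10 genes, Odc1, Sat1 and Ass1. Both lines end before the annotated gene, at chr12:17544623-17544793 (plus strand) for Odc1 and chrX:155216450-155216699 (minus strand) for Sat1. Capitals mark the letters GGGCGG on either strand, the GC box bound by Sp1 factors.
Odc1: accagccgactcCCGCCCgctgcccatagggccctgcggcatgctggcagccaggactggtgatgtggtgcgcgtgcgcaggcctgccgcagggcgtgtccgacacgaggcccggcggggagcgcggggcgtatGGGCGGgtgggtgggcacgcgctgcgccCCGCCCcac
Sat1: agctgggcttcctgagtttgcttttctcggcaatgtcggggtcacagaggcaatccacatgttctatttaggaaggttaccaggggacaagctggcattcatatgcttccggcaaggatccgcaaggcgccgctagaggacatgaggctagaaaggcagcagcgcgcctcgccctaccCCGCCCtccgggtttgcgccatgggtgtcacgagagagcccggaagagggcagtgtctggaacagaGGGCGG
In the 250 bases before the RefSeq start, Odc1 held 4 matches of GGGCGG, 3 of them in the printed part, and Sat1 held 2. Among all 32851 windows of this length 32.7% held a match. Bases after the start, introns included, were not searched for any of the letters named here. The E-box CACGTG, the letters of Myc and Max, occurred in 6.02% of windows and among the 3 genes in Ass1, shown here with the match in capitals (chr2:31470222-31470251, plus strand). This stretch lies before the RefSeq start but inside the gene as GENCODE annotates it.
Ass1: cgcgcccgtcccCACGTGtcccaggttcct
Its core ACGTG, also part of hypoxia response elements and overlapping that match, occurred in 16.6% of windows. On both strands, TTCNNNGAA (STAT factors) was found in 7.02% of windows, TTGCATCA (Atf4 with C/EBP) in 0.791% and TGANTCA (AP-1) in 6.75%, and none of these letters occurred in the 3 windows.

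Azin1, antizyme inhibitor 1, is an inactive relative of Odc1 that shields the enzyme from antizyme and so from breakdown. Azin1 had 237, 233 and 258 CPM in UNX, 157, 157 and 187 CPM under CO-CM, and 108, 95.6 and 110 CPM under PH-CM. The 3 groups did not overlap and PH-CM was the lowest. It fell by 1.22 on the log2 scale under PH-CM (SE 0.08, edgeR FDR 3.05e-07) and by 0.54 under CO-CM (SE 0.08, FDR 0.000151), and PH-CM was 0.68 below CO-CM on that scale (SE 0.08, FDR 0.000111). Odc1 and Azin1 therefore differed in opposite directions between PH-CM and CO-CM. Azin1 lies on chromosome 15 (chr15:38487427-38519266, minus strand), and Gm49077 on the opposite strand shares 5.72% of its exon bases with 12 reads in all libraries.

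Oaz1, antizyme 1, which binds Odc1 and sends it to the proteasome, had 246 ± 3.84, 256 ± 15.7 and 243 ± 5.74 CPM in UNX, CO-CM and PH-CM (SD, n = 3) and was not called in any comparison (log2 fold changes -0.07 to 0.06). Oaz2, antizyme 2, rose by 0.75 and 0.42 under PH-CM and CO-CM (edgeR FDR 8.17e-06 and 0.00065). Azin2, the second antizyme inhibitor, was not called (-0.05 and 0.18, FDR 0.81 and 0.347).

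Srm, spermidine synthase, had the largest decrease against UNX among the 9 tested genes. It had 82.5, 62.3 and 69.4 CPM in UNX repeats 1, 2 and 3, 22.2, 14.2 and 22.0 CPM under CO-CM, and 18.6, 15.0 and 16.9 CPM under PH-CM. Both media lay far below UNX and overlapped each other. The log2 fold changes were -2.08 under PH-CM (SE 0.17, edgeR FDR 1.22e-06) and -1.87 under CO-CM (SE 0.17, FDR 3.49e-06). The difference between the media was -0.21 (95% confidence interval -0.58 to 0.16, FDR 0.349), and was called without CO-CM repeat 2 (-0.39, FDR 0.0358). Srm lies on chromosome 4 (chr4:148591503-148594993, plus strand).

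Both other tested genes of polyamine synthesis also fell under both media. Amd1, S-adenosylmethionine decarboxylase, which supplies the aminopropyl group, fell from 50.1 ± 4.66 CPM in UNX (SD, n = 3) to 29.4 ± 3.34 CPM under CO-CM and 25.1 ± 2.57 CPM under PH-CM (log2 fold changes -0.77 and -0.998, edgeR FDR 5.92e-05 and 7e-06). Sms, spermine synthase, fell by 1.42 and 0.79 under PH-CM and CO-CM (FDR 3.58e-08 and 3.22e-06) and was 0.63 lower under PH-CM than under CO-CM on that scale (FDR 7.3e-05). Of 7 tested genes of methionine salvage and S-adenosylmethionine synthesis, 5 fell and 2 rose in both comparisons with UNX, where 31.7% and 28.9% of all genes tested fell and 31.3% and 28.0% rose under PH-CM and CO-CM. Mtap, which takes up the by-product of polyamine synthesis, fell by 1.67 and 1.42 (FDR 6.25e-07 and 2.78e-06). Eif5a, the translation factor that carries the spermidine-derived residue hypusine, fell by 1.02 and 0.71 (FDR 1.66e-07 and 3.41e-06), and all 4 tested hypusine genes fell under PH-CM and 1 under CO-CM, beside the same shares of all genes.

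The remaining breakdown and transport genes differed between the media. Smox, spermine oxidase, had 32.4 ± 2.00 CPM in UNX, 23.5 ± 2.27 CPM under CO-CM and 47.5 ± 3.40 CPM under PH-CM (SD, n = 3). It fell under CO-CM (log2 fold change -0.46, SE 0.08, edgeR FDR 0.000502), rose under PH-CM (0.55, SE 0.08, FDR 0.000109) and PH-CM exceeded CO-CM by 1.02 (FDR 8.37e-06). Paox, the oxidase of acetylated polyamines, rose under PH-CM (0.29, FDR 0.031) and lay 0.38 above CO-CM (FDR 0.0203). Atp13a2, a lysosomal polyamine exporter, rose by 1.51 and 1.05 under PH-CM and CO-CM (FDR 1.16e-07 and 2.32e-06). Atp13a3, linked to polyamine uptake, had 0.02 under PH-CM (FDR 0.875) and fell under CO-CM (-0.42, FDR 0.0067).

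**Figure D4:**
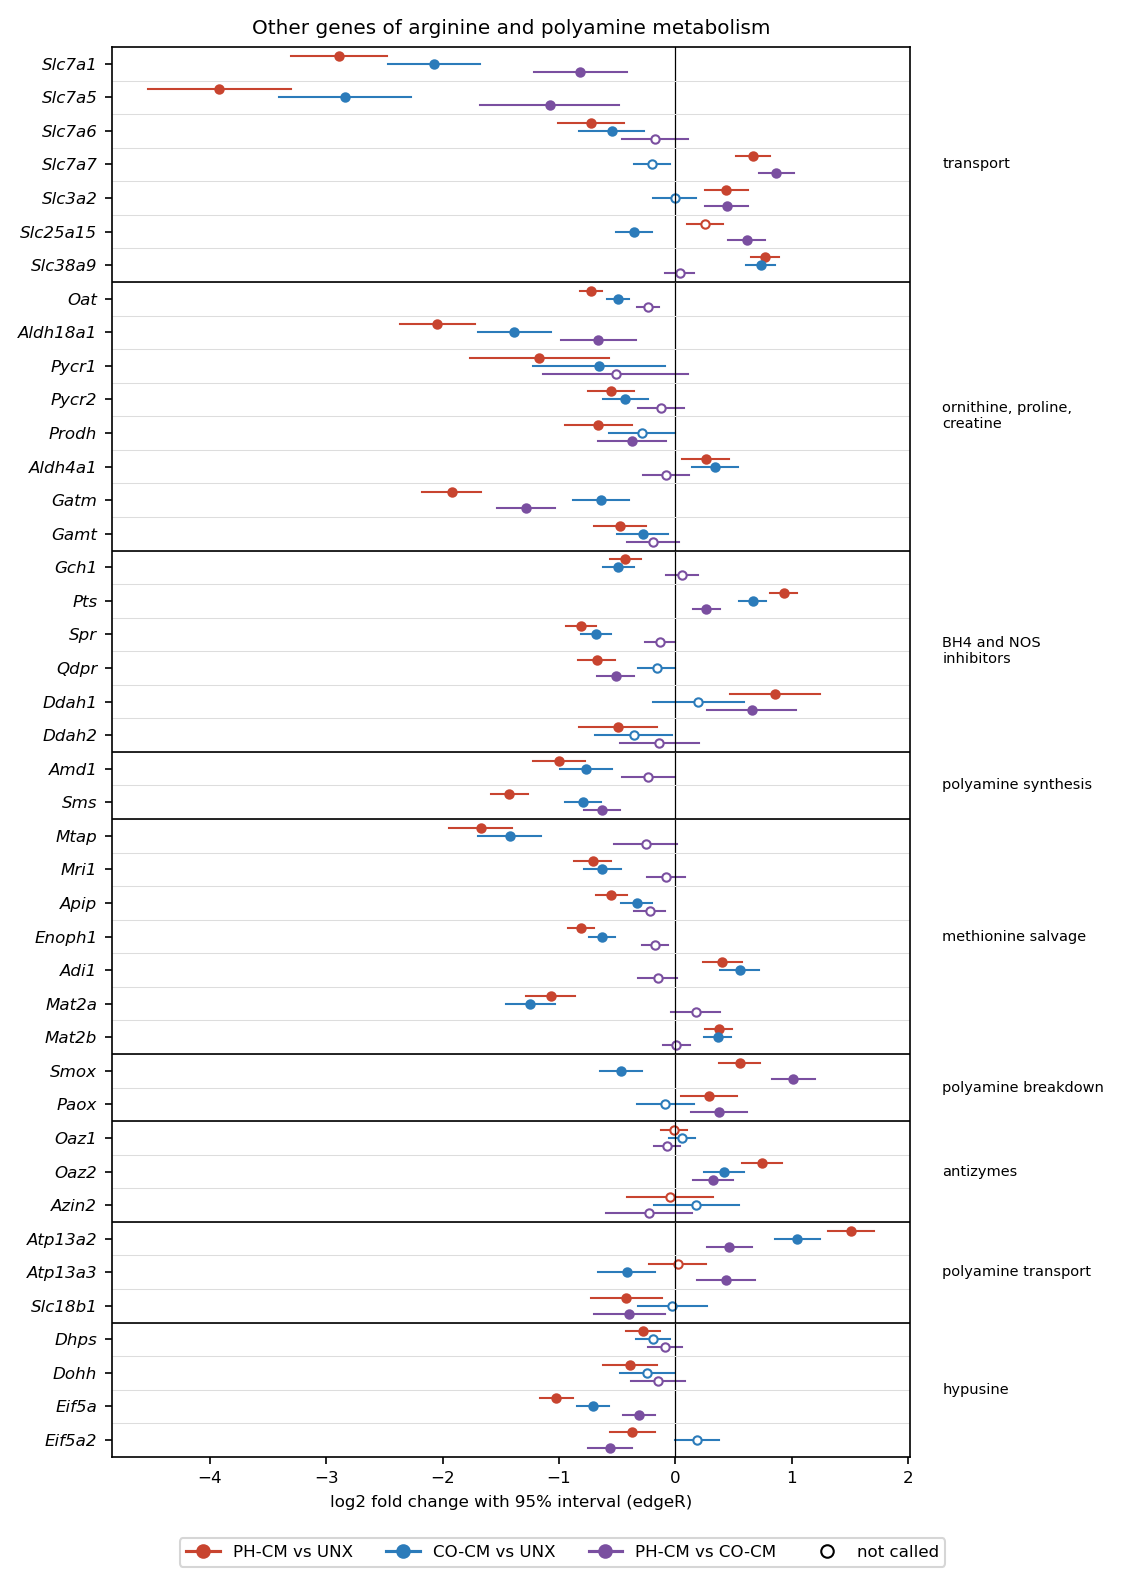
Log2 fold change (x axis) with 95% confidence intervals from the edgeR fit for the tested genes of the pathway outside the set of 10 (y axis, grouped by role) in the 3 comparisons; filled points were called. Slc7a5 and Slc7a1 lie at -3.92 and -2.89 for PH-CM against UNX, and Smox at 0.55 for PH-CM and -0.46 for CO-CM against UNX.

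Over the whole pathway outside the 10 genes, 42 of 55 listed genes were tested, 41 of them without Pycr1. Of these 41, 12 rose, 25 fell and 4 were not called under PH-CM, beside 31.3% higher and 31.7% lower among all genes. Under CO-CM 7 rose, 21 fell and 13 were not called, beside 28.0% and 28.9%, and the median log2 fold changes were -0.43 and -0.33. Between PH-CM and CO-CM 10 were higher, 10 lower and 21 not called, beside 12.2% and 15.0%, with a median of -0.14. The list was written with results of these data known and its counts are a description.

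Set beside each other per length, the 10 genes changed their order between the groups. In UNX, Srm (46.0 ± 7.23 RPKM), Azin1 (39.9 ± 2.02), Odc1 (36.6 ± 6.20) and Sat1 (36.3 ± 1.90) were the highest, and each overlapped its neighbours in range. Under CO-CM Sat1 stood alone at 106 ± 5.73 RPKM, followed by Azin1 (26.2 ± 2.66), Odc1 (18.3 ± 1.38), Asl (14.2 ± 0.426) and Srm (12.0 ± 2.94), of which Asl and Srm overlapped. Under PH-CM Sat1 (95.4 ± 7.40 RPKM) was the highest and Srm (10.4 ± 1.27) lay below Odc1 (30.0 ± 0.847), Azin1 (16.5 ± 1.33) and Asl (15.1 ± 0.645), of which Azin1 and Asl overlapped. Arg1 (31.7 ± 19.3) ranged from 14.2 to 52.5 RPKM under PH-CM and overlapped Odc1, Azin1 and Asl. Arg1 lay at 5.22 ± 3.94 RPKM in UNX and 3.54 ± 3.32 under CO-CM. Slc7a2 and Ass1 stayed between 0.860 and 2.61 RPKM in all libraries, and Arg2 and Nos2 lay below them in UNX and CO-CM.

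Pairs of polyamine genes were also compared within each library. Sat1 over Srm was 0.803 ± 0.145 in UNX, 9.32 ± 2.87 under CO-CM and 9.27 ± 1.56 under PH-CM (RPKM ratio, SD, n = 3), and the media overlapped. Sat1 over Odc1 was 1.01 ± 0.195, 5.83 ± 0.552 and 3.17 ± 0.170, with no overlap between the groups. Odc1 over Srm was 0.794 ± 0.0295, 1.58 ± 0.328 and 2.91 ± 0.366, again without overlap. Azin1 over Odc1 was 1.11 ± 0.167, 1.43 ± 0.0707 and 0.550 ± 0.0422, and Oaz1 over Azin1 was 2.48 ± 0.119, 3.77 ± 0.454 and 5.73 ± 0.536. These ratios are given as a description, since the smallest two-sided p of an exact permutation test of 3 libraries against 3 is 0.1.

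**Figure D5:**
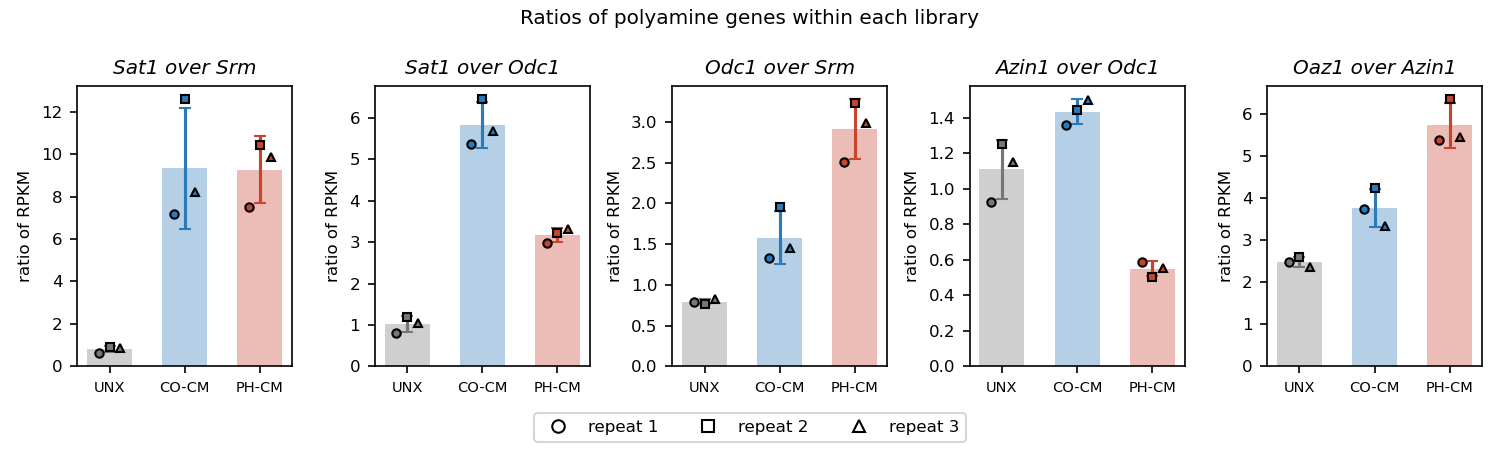
Ratio of RPKM within each library (y axis) for 5 gene pairs in UNX, CO-CM and PH-CM (x axis); bars are means, error bars SD of 3 libraries and symbols the repeat number. Sat1 over Srm lies between 0.638 and 0.909 in UNX and between 7.16 and 12.6 in the libraries with conditioned medium, and Azin1 over Odc1 is lowest under PH-CM.

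Among 13 listed regulators known to act on Arg1, Nos2 or Odc1, 6 were higher and 3 lower under PH-CM than in UNX (31.3% and 31.7% of all genes tested), and 7 higher and 3 lower under CO-CM (28.0% and 28.9%). Cebpb, which encodes the factor C/EBP beta that binds the Arg1 enhancer, had 44.8 ± 3.68 CPM in UNX, 54.3 ± 6.02 CPM under CO-CM and 164 ± 22.3 CPM under PH-CM (SD, n = 3), and PH-CM exceeded CO-CM 3.02-fold (edgeR FDR 3.04e-06). Hif1a, a hypoxia factor, rose under PH-CM (0.94, FDR 4.97e-06) and stood 2.30-fold higher in PH-CM than in CO-CM libraries (FDR 5.34e-06). Its fall under CO-CM (-0.27, FDR 0.0221) lay close to the fold change threshold, and CO-CM overlapped UNX. Epas1, another hypoxia factor, rose under CO-CM (0.60, FDR 0.000424) and was not called under PH-CM (-0.20, FDR 0.0956). Epas1 was lower under PH-CM than under CO-CM (-0.80, FDR 0.000189). Il4ra, the interleukin 4 receptor chain, rose by 1.53 and 0.37 under PH-CM and CO-CM (FDR 1.48e-07 and 0.00416), and Stat3 by 1.13 and 0.60 (FDR 6.65e-08 and 1e-05). Myc, a known activator of Odc1 transcription, fell from 91.1 ± 12.9 CPM in UNX to 12.1 ± 2.48 CPM under CO-CM and 8.27 ± 0.397 CPM under PH-CM (log2 fold changes -2.91 and -3.46, FDR 5.4e-08 and 1.2e-08). Pparg, a nuclear receptor of alternative activation, fell under PH-CM (-1.29, FDR 3.8e-07) and rose under CO-CM (0.30, FDR 0.00925), whereas Stat6 was not called (0.11 and 0.05, FDR 0.0425 and 0.281). None of these values bears on which factor acts on the 10 genes.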

How the data were processed

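RNA-Seq counts of 9 BMDM libraries were used, grouped by treatment and repeat number as their labels give them. Per the labels, the authors used FastQC and AfterQC for read quality and trimming, STAR for alignment to GRCm38 and featureCounts 1.6.2 for assignment to genes. The deposited table holds raw counts, which were not normalized. The deposited RPKM are those counts scaled to exon length and to counted reads. The featureCounts options named in the methods set neither strand nor multimapping nor read pairs, which leaves the defaults of unstranded counting of uniquely mapped single reads. Most counts of 1 to 19 were even (81.4% to 83.8% per library), so mates were taken to be counted separately, and counting intervals and floors use reads divided by 2. The authors' comparison tables (log2 fold changes, log2 CPM, p-values, FDR) were not used.

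Genes expressed at over 1 CPM in 3 or more libraries were tested in R 4.3.3 with edgeR 4.0.16 (TMM factors, 1 quasi-likelihood fit of all 9 libraries, a mean per group), and calls needed an FDR no larger than 0.05 and a 1.2-fold change. The fit was tested on simulated data. Depth was 62017933 to 84314201 reads. Counting error matters most for Arg2 and Nos2, and Ass1 was also low, with 150 to 274 reads per library. Same-numbered libraries deviated together from their group means (r 0.276 to 0.484 in 9 pairs, against -0.376 to 0.0423 in 18 other pairs). The main fit had no term for the repeat number. Values within the same repeat number and a fit with the number as a block are given as alternatives. Alternatives covered scaling, filters, thresholds, DESeq2 1.42.0, counts divided by 2 and each library left out. Coordinates come from GENCODE on GRCm38 and promoters from RefSeq. Named genes are the 10 genes, the pathway, regulator and marker lists and the 5 genes most like Arg1 by each of 2 measures. The genes and lists were chosen with earlier results of these data known. Of the 55 listed pathway genes, 54 were found in the table, and 1 further gene is not reported here.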

Additional observations from a re-analysis of the deposited data

How the results depend on the processing

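Of 513 recomputed log2 fold changes of the 9 tested genes (19 alternatives in each of 3 comparisons), 493 kept their direction and their side of the thresholds, 9 lost the call, 9 gained one and 2 changed sign. Both changes of sign concern Arg1 under CO-CM against UNX, at 0.256 without UNX repeat 2 and at 0.0385 without CO-CM repeat 1, and over all single libraries left out it ranged from -1.47 to 0.256. With a fold change of at least 2 required, 3 genes in place of 5 were called higher under PH-CM and also under CO-CM against UNX, 1 in place of 3 lower under CO-CM, and 0 in place of 3 lower under PH-CM than under CO-CM, since the other changes are smaller. With the replicate block, 6 genes were called higher and 2 lower under PH-CM against UNX. The block gained Ass1 there and changed no other call among the 9 tested genes. Leaving out 1 library gave 4 to 6 genes called higher under PH-CM, 4 to 5 under CO-CM and 2 to 3 under PH-CM against CO-CM. With 3 libraries a group, the differences of Slc7a2, Ass1 and Odc1 under PH-CM against UNX lie near the thresholds, and that of Asl under CO-CM near the fold change threshold. Arg2 and Nos2 are limited most by counting, and Ass1 also rests on few reads (150 to 274 per library). Arg1, in the fit without the block, is limited by the spread between repeats. The depth of fragments is lower than that of reads, and halving the counts changed no call among the 9 tested genes.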
